A study of Mus musculus with 4 samples.

Results

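Hox genes encode homeodomain transcription factors that stand in 4 clusters, Hoxa on chromosome 6, Hoxb on chromosome 11, Hoxc on chromosome 15 and Hoxd on chromosome 2 in the mouse. They were chosen here as all rows of the deposited table that are annotated as protein-coding and carry a symbol made of Hox, a cluster letter from a to d and a paralog number. The rule found 40 rows of 54532, for 39 distinct symbols, since Hoxd4 is listed under 2 gene identifiers. RNA of mouse skin epidermal stem cells (EpSCs) of the C57BL/6 strain was sequenced after 48 h in culture with 30 µg/mL ALP, a polysaccharide of Arctium lappa (burdock), in 2 libraries, or with 0.06% DMSO as the vehicle control, in 2 libraries. All cultures were grown in EpiLife medium with a keratinocyte growth supplement. The labels do not state whether ALP cultures also received DMSO, or whether a group's libraries stem from different cultures or mice. The spread behind every p-value is therefore that of these libraries and may be technical. The libraries are called A and B within each group, which are names only and pair nothing across groups.

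Within a cluster the genes are numbered by paralog group, from group 1 at the 3′ end to group 13 at the 5′ end, and their order follows the order of their expression along the body axis of the embryo. Low-numbered genes act in the hindbrain and neck, middle groups in the trunk, and high-numbered genes at the posterior end and in the limb tips. Adult cells of the skin keep part of this expression as a record of position. Hoxc13 is an exception to the axial rule, because it is active in hair follicles and nails over the whole body and regulates hair keratin genes and Foxn1. Hox proteins bind DNA with TALE cofactors of the PBX and MEIS families. Their loci are kept active by MLL and menin complexes, kept silent by Polycomb complexes, and induced by retinoic acid.

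Total counts per library were 17430345 and 15766244 in ALP cultures and 17415047 and 17360445 in control cultures. CPM values (counts scaled to a common library size) were scaled by trimmed mean of M values (TMM). A count of 3, taken as the detection floor, corresponded to 0.172 to 0.190 CPM of the total counts, before TMM scaling. This floor covers counting error only. Markers of basal keratinocytes were abundant, with 11 of 11 tested and a summed level of 40412 and 34707 CPM in ALP cultures, against 50994 and 51509 CPM in controls. Of these 11 markers 4 were called higher and 4 lower, with log2 fold changes from -2.90 to 1.78 over the list. Beside this and the marker counts below, 17.7% of all genes tested were called higher and 12.1% lower. Dermal fibroblast markers, which matter here because dermal fibroblasts are known for strong positional Hox expression, summed to 95.1 and 80.1 CPM in ALP cultures and 115 and 107 CPM in controls. Most of that sum was Fbln1, with 1306 and 1008 counts in ALP cultures and 1371 and 1305 counts in controls. The sum therefore says little of the other fibroblast markers. Log2 fold changes of the tested fibroblast markers ran from -2.57 to 1.57, with a median of -0.05. Lum and Dpt were at 0 counts in every library, Twist2 had at most 2 counts, and 11 of the 15 fibroblast markers were tested, with Postn and Dcn lower in ALP cultures and none higher. Melanocyte markers summed to 72.4 and 60.5 CPM in ALP cultures and 75.3 and 68.8 CPM in controls, and no immune or muscle marker reached the level needed for a test. Endothelial markers, of which 3 were called higher and 1 lower, summed to 19.3 and 30.1 CPM in ALP cultures and 8.61 and 10.2 CPM in controls. Neural and Schwann cell markers, of which 2 were called higher, summed to 290.1 and 328 CPM in ALP cultures and 161 and 205 CPM in controls. In bulk RNA, fewer cells of a type and less RNA per cell cannot be told apart, and the part of RNA from such cells in the Hox values was not tested.

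The DNA just before 3 of the genes is shown, for 2 expressed members and a silent one. Hoxb8 and Hoxa5 were lower in ALP cultures, whereas Hoxd13 had no count in any library. The windows hold the 250 bases before the RefSeq start (GRCm38.p6), 5′ to 3′ on the strand of the gene. Capitals mark matches, on either strand, to the TATA box (letters TATAAA), the inverted or direct CCAAT box, the GC box (letters GGGCGG), a PBX-HOX element (letters TGATNNAT) or an AP-1 element (letters TGANTCA).
Hoxb8, chr11:96281655-96281904, plus strand: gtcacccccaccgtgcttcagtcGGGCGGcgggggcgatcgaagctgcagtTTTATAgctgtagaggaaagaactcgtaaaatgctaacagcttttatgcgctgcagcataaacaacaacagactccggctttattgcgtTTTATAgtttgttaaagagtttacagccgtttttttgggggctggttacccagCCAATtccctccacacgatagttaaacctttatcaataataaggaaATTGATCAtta
Hoxa5, chr6:52204588-52204837, minus strand: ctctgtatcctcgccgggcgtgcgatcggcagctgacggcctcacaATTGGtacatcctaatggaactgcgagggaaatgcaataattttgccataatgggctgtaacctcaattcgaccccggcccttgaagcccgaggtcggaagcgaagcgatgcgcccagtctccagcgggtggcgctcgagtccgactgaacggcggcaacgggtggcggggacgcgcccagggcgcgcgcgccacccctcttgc
Hoxd13, chr2:74667975-74668224, plus strand: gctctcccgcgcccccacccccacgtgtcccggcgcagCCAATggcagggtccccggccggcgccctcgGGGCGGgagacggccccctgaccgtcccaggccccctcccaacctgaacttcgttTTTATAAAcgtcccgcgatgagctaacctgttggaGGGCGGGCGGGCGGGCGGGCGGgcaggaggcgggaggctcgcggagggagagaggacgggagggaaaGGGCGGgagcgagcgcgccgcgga

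The Hoxb8 window was the least GC-rich of the 3, at 44.4% GC, with 12 CpG dinucleotides, and was the only one of them with a PBX-HOX match. The Hoxa5 window had 63.6% GC and 28 CpGs. The Hoxd13 window had 74.4% GC, 31 CpGs and 7 GC box matches, several of them overlapping in 1 repeat. RefSeq windows were matched for 22 of the Hox symbols, in 24 windows. The 10 windows of genes that could be tested had a median of 56.4% GC, the 14 of genes that could not had 59.2%, and all 32851 promoter windows had 52.4%. The ratio of observed to expected CpG, which is low where CpGs have been lost, had medians of 0.587, 0.757 and 0.373 in those 3 sets. PBX-HOX matches were found in 2 of the 10 windows of tested genes and 2 of the 14 others, and in 7.68% of all windows. CCAAT matches were found in 5 of 10 and 9 of 14, and in 33.8% of all windows. GC box matches were found in 4 of 10 and 6 of 14, and in 32.7% of all windows. TATA matches were found in 1 of 10 and 3 of 14, and in 12.4% of all windows. AP-1 matches were found in 0 of 10 and 1 of 14, and in 6.75% of all windows. A match describes the letters and is not a binding site.

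The clusters also hold microRNA genes whose products pair with Hox transcripts, and they show the same paralogy as the proteins. miR-196 is encoded between groups 9 and 10 and miR-10 next to group 4. Their mature sequences, from RefSeq, are given with the seed (bases 2 to 8) in capitals.
miR-196a-5p: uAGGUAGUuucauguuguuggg
miR-196b-5p: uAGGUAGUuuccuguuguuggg
miR-10a-5p: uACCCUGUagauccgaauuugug
miR-10b-5p: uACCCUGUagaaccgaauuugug
Each pair shares its seed, so the seed match is ACTACCT for both miR-196 forms and ACAGGGT for both miR-10 forms.

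Of the 40 Hox rows, 10 had no count in any library, which allows a level of up to 0.172 to 0.190 CPM before TMM scaling. These were Hoxa11, Hoxa13, Hoxb1, Hoxd1, both Hoxd4 rows, Hoxd10, Hoxd11, Hoxd12 and Hoxd13. Hoxb13, Hoxd3 and Hoxd9 had at most 2 counts per library and none in an ALP library. Hoxa10, Hoxc9, Hoxc10, Hoxc11 and Hoxc12 reached 3 counts in at least 1 library, with no more than 8 in any, and were too low to test. The remaining 22 genes passed the filter on low counts, 20 of them with 10 or more counts in every library.

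The genes that passed the filter formed a block that ended at group 9 in Hoxa and Hoxb. In Hoxc the block ran from group 4 to group 8, with Hoxc13 standing apart at the far end. Hoxc9, with 8 and 5 counts in ALP libraries and 6 and 4 in controls, was above the floor but not tested. The 8 genes of groups 10 to 12 together had 8 and 1 counts in ALP libraries and 6 and 15 counts in control libraries. Hoxd was near silent apart from Hoxd8, which had 11 and 5 counts in ALP libraries and 21 and 23 counts in controls. The other 9 Hoxd rows together had 0 counts in both ALP libraries and 2 counts in each control library.

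**Figure D1:**
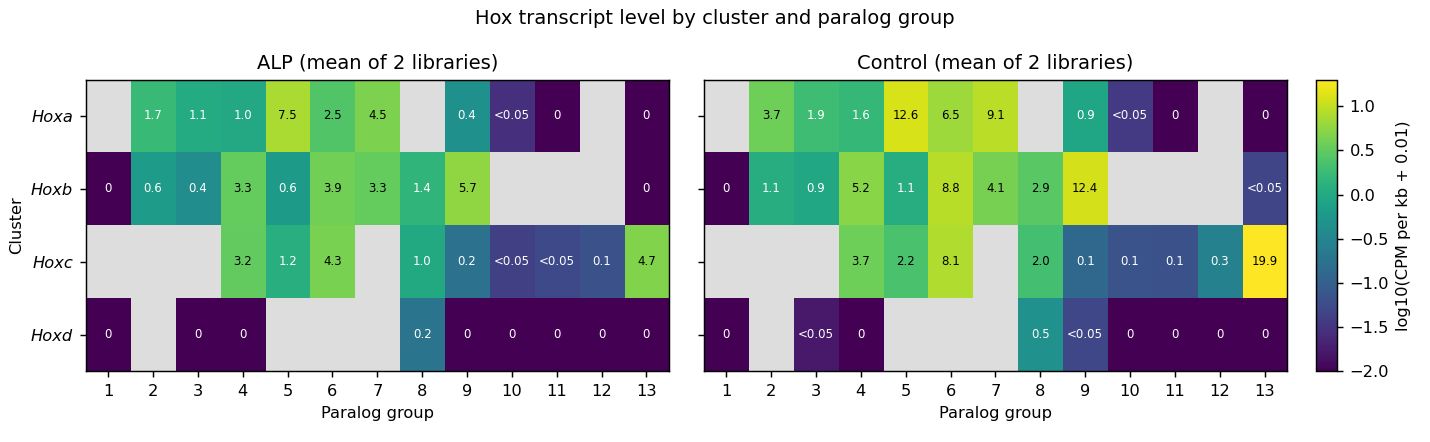
Mean level of Hox genes in ALP cultures (left) and control cultures (right), 2 libraries each, as CPM per kilobase of gene length on a log10 colour scale after adding 0.01. Rows are clusters, columns are paralog groups, grey squares have no gene or are not shown, and printed numbers are CPM per kb. Groups 10 to 12 and nearly all of Hoxd are dark in both panels, and Hoxc13 is at 4.73 in ALP cultures and 19.9 in controls.

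Levels were compared between genes per kilobase of the table's gene length. Even the highest was of moderate abundance, since 3950 of 16153 protein-coding genes with a count stood above it per kb. In ALP cultures Hoxa5 had 8.60 and 6.48 CPM per kb, Hoxb9 had 7.13 and 4.19 CPM per kb, and Hoxc13 had 8.04 and 1.42 CPM per kb. These overlapped each other, so their order in ALP cultures was not resolved. In controls Hoxc13 came first, at 22.7 and 17.1 CPM per kb, above every other member in both libraries. Hoxa5 had 12.7 and 12.5 CPM per kb in controls and Hoxb9 had 13.1 and 11.6 CPM per kb, and these overlapped.

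After ALP 11 of the 22 tested Hox genes were called lower, with members in Hoxa, Hoxb and Hoxc, and 0 were called higher. In edgeR's quasi-likelihood test with Benjamini-Hochberg adjustment over all 14056 genes tested, a call was made at an adjusted p under 0.05. Over all genes tested, 29.8% were called in either direction, 12.1% lower and 17.7% higher. Fitted log2 fold changes were negative for 21 of the 22, with a median of -0.96, against -0.0029 for all genes tested. For 19 of the 22, both ALP libraries lay below both controls, a separation that 37.5% of all genes tested showed. Hoxa4 and Hoxb7 overlapped. With 2 libraries per group, a call largely implies such a separation, which therefore adds no support to the call. The 11 called genes had log2 fold changes of -1.37 to -0.67, and 7 others had an unadjusted p under 0.05.

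These calls depended on having both control libraries. Without control library A or without control library B, 0 of the 22 were called, although 8 and 12 had an unadjusted p under 0.05. Over all genes, 0 and 197 were called in those fits. Without ALP library A 19 were called and without ALP library B 13 were. In DESeq2 11 of the 22 were called, 10 of them shared with the test above.

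ALP library B was below ALP library A for 20 of the 22 genes, against 50.6% of all genes tested. Relative to the mean of the controls, the median log2 difference of the 22 genes, after adding 0.1 CPM, was -0.70 in ALP library A and -1.30 in ALP library B. The same median over all genes tested was 0.0027 in library A and -0.0088 in library B.

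**Figure D2:**
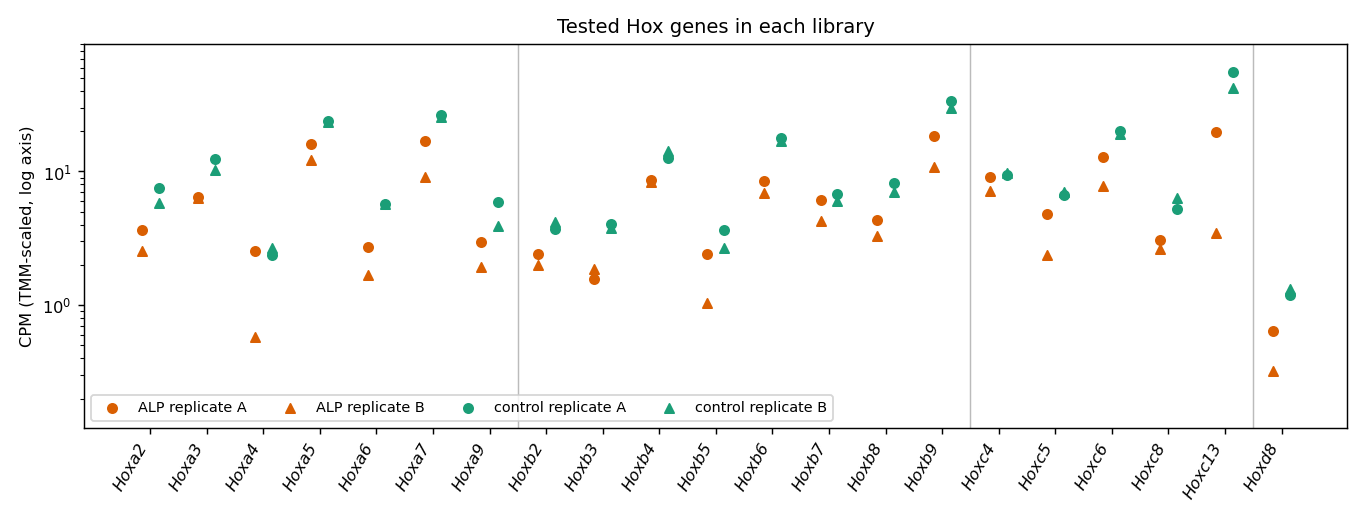
CPM of tested Hox genes in each library on a log axis, ALP cultures in orange left of control cultures in green, circles for replicate A and triangles for replicate B, with grey lines between the clusters. Orange points lie below green points for 19 genes, and the widest gap between the ALP libraries is at Hoxc13 and Hoxa4.

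Summed over members, the Hoxa cluster had 81.6 and 64.6 CPM in ALP cultures and 107 and 103 CPM in controls, a ratio of 0.698. The Hoxb cluster had 52.2 and 38.5 CPM in ALP cultures and 90.8 and 84.5 CPM in controls, a ratio of 0.517. The Hoxc cluster had 50.4 and 23.9 CPM in ALP cultures and 97.6 and 85.2 CPM in controls, a ratio of 0.406. In each of these clusters both ALP libraries lay below both controls. Sums over members were not tested. Without Hoxc13 the Hoxc ratio was 0.600. Hoxc13 made up 39.3% and 14.6% of Hoxc counts in ALP libraries and 57.1% and 49.4% in controls.

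**Figure D3:**
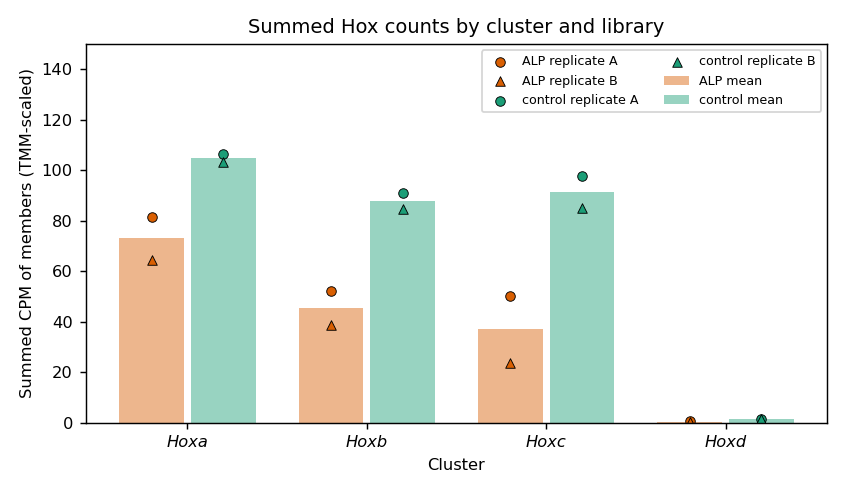
Summed CPM of the members of each cluster, as means of 2 libraries (bars, from 0) and single libraries (circles for A, triangles for B), ALP cultures left of control cultures. Both ALP libraries lie below both controls in Hoxa, Hoxb and Hoxc, and Hoxd is at most 1.43 CPM in any library.

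The anterior groups 2 to 4 specify hindbrain, neck and pharyngeal structures. Hoxa2, which patterns the hyoid arch, had 3.65 and 2.52 CPM in ALP cultures and 7.48 and 5.83 CPM in controls (log2 fold change -1.10 ± 0.28 SE, adjusted p = 0.0387). Hoxa3, needed for thymus and parathyroid formation, had 6.48 and 6.34 CPM in ALP cultures and 12.3 and 10.3 CPM in controls (-0.82 ± 0.18, adjusted p = 0.0286). The ALP libraries of Hoxa3 lay close together. Hoxb3 had 1.56 and 1.87 CPM in ALP cultures and 4.08 and 3.77 CPM in controls (-1.19 ± 0.27, adjusted p = 0.0306), and missed the threshold in DESeq2 at an adjusted p of 0.0521. Hoxb4, a factor also known for expanding blood stem cells, had 8.56 and 8.34 CPM in ALP cultures and 12.7 and 14.2 CPM in controls (-0.67 ± 0.16, adjusted p = 0.0324). Hoxb4 had the smallest fall among the called genes, and its ALP libraries nearly coincided. The level of Hoxb3 is uncertain, because 52.9% of its annotated exon bases (GENCODE M21) lie opposite those of Hoxb3os, and no source used here gives the strandedness of the libraries. For Hoxa3 27.1% of exon bases are shared with other genes, and for Hoxa2 15.04%. Hoxa4, Hoxb2 and Hoxc4 were not called, with log2 fold changes of -0.67, -0.83 and -0.23.

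Groups 5 and 6 act in the neck and upper trunk. Hoxa5, known for roles in lung and the cervico-thoracic skeleton, had 16.1 and 12.2 CPM in ALP cultures and 23.9 and 23.5 CPM in controls (-0.74 ± 0.17, adjusted p = 0.0316). Group 6 was the one group with 3 members in which all were called. Hoxa6 had 2.72 and 1.68 CPM in ALP cultures, against 5.72 and 5.71 CPM in controls, the largest fall among called genes (-1.37 ± 0.30, adjusted p = 0.0275). Hoxb6 had 8.45 and 6.92 CPM in ALP cultures and 17.7 and 16.8 CPM in controls (-1.17 ± 0.17, adjusted p = 0.0161). Hoxc6 had 12.8 and 7.76 CPM in ALP cultures and 19.9 and 19.1 CPM in controls (-0.92 ± 0.25, adjusted p = 0.0451). In each of the 4 genes the controls agreed closely and both ALP libraries lay below them. Hoxb5 and Hoxc5 were not called, at -0.85 and -0.92.

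Groups 7 to 9 act in the thorax and toward the lumbar region. Hoxb8, known for grooming behaviour in mutant mice, had 4.34 and 3.30 CPM in ALP cultures and 8.27 and 6.97 CPM in controls (-0.99 ± 0.24, adjusted p = 0.0340). Hoxc8 had 3.07 and 2.65 CPM in ALP cultures and 5.27 and 6.28 CPM in controls (-1.01 ± 0.24, adjusted p = 0.0330). Hoxb9, the most abundant Hoxb gene per kb, had 18.3 and 10.8 CPM in ALP cultures and 33.8 and 29.9 CPM in controls (-1.12 ± 0.26, adjusted p = 0.0307). Of these 3 genes, Hoxb9 had the widest gap within ALP cultures. Hoxa7 just missed the threshold, with 16.9 and 9.05 CPM in ALP cultures and 26.6 and 25.5 CPM in controls (-1.001 ± 0.29, adjusted p = 0.0514). It was called in DESeq2 at an adjusted p of 0.0061 and under each other scaling and filter tried, and 20.4% of its exon bases are shared with Hoxaas3. Hoxb7 had 6.08 and 4.27 CPM in ALP cultures and 6.80 and 6.00 CPM in controls (-0.30 ± 0.25, adjusted p = 0.385), so that the groups overlapped. Hoxa9 and Hoxd8 were not called, at -0.999 and -1.35.

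**Figure D4:**
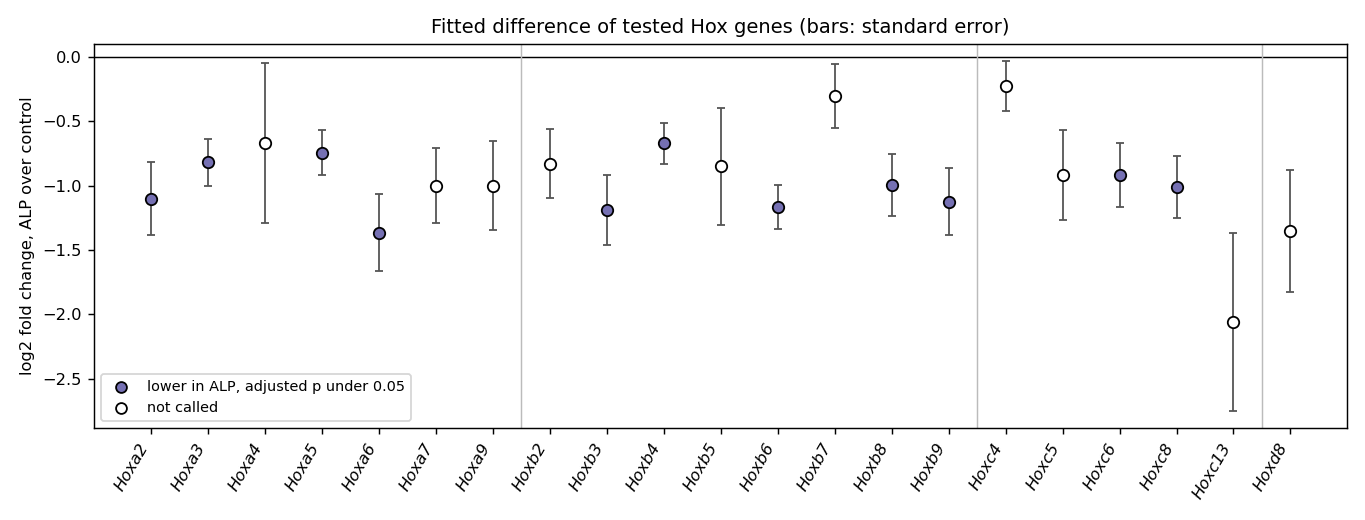
Fitted log2 fold change, ALP over control, of tested Hox genes with standard errors (2 libraries per group), ordered by cluster and paralog group. Filled points are the 11 genes lower in ALP cultures at an adjusted p under 0.05 and open points were not called. Hoxc13 has the lowest value and the longest error bar.

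Hoxc13, at the posterior end of the code, stood apart. It had 342 and 54 counts in ALP cultures and 985 and 737 counts in controls, or 19.8 and 3.49 CPM against 55.8 and 42.1 CPM (-2.06 ± 0.69, adjusted p = 0.0713). Both ALP libraries lay far below the controls and differed widely from each other, and the gene was not called. It was called with no filter on low counts (adjusted p = 0.0408) and in limma-voom (-2.48, adjusted p = 0.0305), but not in DESeq2 (adjusted p = 0.139). Its log2 fold change was -3.81 without ALP library A and -1.30 without ALP library B.

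Other tested transcripts inside the clusters also had negative fold changes, though most were not called. Of 46 further rows that lie between the outermost Hox genes, 26 had no count and 12 were tested. Of these 12, 4 were lower and 0 higher, beside 12.1% lower and 17.7% higher over all genes tested. All 12 had negative fold changes, with a median of -1.10, but not all were separated between the groups. Some overlap Hox genes, as Hoxb3os does Hoxb3, so the 12 are not separate observations. In the quasi-likelihood test the 4 were all in Hoxa. Hotairm1, a long noncoding RNA of the Hoxa cluster, had 51 and 40 counts in ALP cultures and 93 and 95 counts in controls (-0.95 ± 0.23, adjusted p = 0.0348). Hoxaas2 had 19 and 19 counts in ALP cultures and 73 and 49 counts in controls (-1.57 ± 0.34, adjusted p = 0.0275). Hoxaas3 had 17 and 6 counts in ALP cultures and 43 and 47 counts in controls (-1.87 ± 0.47, adjusted p = 0.0370). The other called row, 5730596B20Rik, had 12 and 3 counts in ALP cultures and 46 and 42 counts in controls (-2.44 ± 0.54, adjusted p = 0.0281). Hoxaas2, Hoxaas3 and 5730596B20Rik share exon bases with Hoxa3, so reads may be divided between them. The most counted of these rows, the noncoding Gm53 between Hoxb13 and Hoxb9, had 256 and 211 counts in ALP cultures and 369 and 310 counts in controls and was not called (-0.44 ± 0.15, adjusted p = 0.0769). Gm15050, which also had many counts, was also not called (-0.72 ± 0.27, adjusted p = 0.0920).

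The protein-coding genes nearest to the clusters were split, and some lie far from them. Creb5, for example, starts at base 53287270 of chromosome 6, whereas Hoxa13 ends at base 52260880. Among the 5 nearest on each side of each cluster, 40 in all, 31 were tested, with a median log2 fold change of -0.01. Of these 9 were lower and 5 higher, beside 12.1% lower and 17.7% higher over all genes tested. Next to Hoxa, Nfe2l3, Skap2, Hibadh, Tax1bp1 and Creb5 were lower, at -1.88, -0.79, -0.41, -0.64 and -0.88, and Snx10 was higher, at 0.79. Nfe2l1 and Copz2 next to Hoxb were lower, at -0.58 and -1.02. Next to Hoxc, Calcoco1 was lower, at -1.68, and Cbx5, which encodes heterochromatin protein HP1 alpha, was higher, at 0.65. Next to Hoxd, Lnpk, Nfe2l2 and Agps were higher, at 0.60, 0.41 and 0.54, and Ttc30b was lower, at -1.03. Hnrnpa2b1 and Hnrnpa1, which with Nfe2l1 had the most counts, were not called, at 0.05 and 0.16.

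The microRNA seeds printed above were searched in the annotated 3′ untranslated regions of the tested members, all 22 of which have one in GENCODE M21. The miR-196 match was found in 8, among them Hoxa4, Hoxa5, Hoxa7, Hoxa9, Hoxb6, Hoxb7 and Hoxc8, and in 7.71% of all 21089 protein-coding genes with such a region. The median longest region was 966 bases in these members and 1085 bases over all genes. Hoxa7 had 4 matches and Hoxc8 had 2. A site of 22 bases is given for Hoxa7 and for each of the 3 genes with a match that were lower, with the match in capitals.
Hoxa7: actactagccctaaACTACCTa
Hoxb6: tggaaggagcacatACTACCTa
Hoxc8: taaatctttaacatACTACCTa
Hoxa5: atatttttattcaaACTACCTa
Of the 8 genes with a match 3 were lower, with a median log2 fold change of -0.87. Of the 14 without one 8 were lower, with a median of -0.96, beside 12.1% lower over all genes tested. The miR-10 match was in 3, among them Hoxa3 and Hoxb3, and in 14.1% of all genes. The precursor row Mir196a-1 had 21 and 13 counts in ALP libraries and 34 and 44 counts in controls (-1.10 ± 0.37, adjusted p = 0.0735), separated but not called. Those reads cover the hairpin and do not measure the mature microRNA.

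The DNA-binding partners of Hox proteins are TALE homeodomain proteins. Of 10 tested TALE cofactors 2 were lower and 0 higher, with a median log2 fold change of -0.39. Over all genes tested, 12.1% were lower and 17.7% higher, with a median of -0.0029. Pbx2 had 557 and 409 counts in ALP cultures and 722 and 730 counts in controls (-0.49 ± 0.13, adjusted p = 0.0426). Tgif1 and Meis2 were not called, at 0.25 and -0.31.

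Genes on the lists for complexes that keep Hox loci on or off were called in both directions. The 3 lower genes of the MLL and menin list were all demethylases. Of 14 tested genes of the MLL and menin list, which also holds demethylases, 2 were higher, 3 lower and 9 not called, with a median of 0.05, beside 17.7% higher and 12.1% lower over all genes tested. Wdr5, a core subunit of MLL complexes, was higher (0.65 ± 0.10, adjusted p = 0.0161). Kdm5b, which removes the activating H3K4 methyl mark, was lower (-0.95 ± 0.19, adjusted p = 0.0222), as were the H3K27 demethylases Kdm6a (-0.59 ± 0.12, adjusted p = 0.0239) and Kdm6b (-0.42 ± 0.10, adjusted p = 0.0306). Kmt2a, which encodes MLL1, and Men1, which encodes menin, were chosen after their values were seen and were not called, at -0.0015 ± 0.084 and 0.07 ± 0.09. Of 32 tested Polycomb genes 10 were higher, 3 lower and 19 not called, with a median of 0.10. The 4 with the smallest p were Scmh1 at 1.12 and Phc2 at 0.85, both of repressive complex PRC1, and Rbbp7 at 0.44 and Epop at 0.82, both found with PRC2.

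Regulators upstream of Hox genes in the embryo were also mixed. Of 12 tested 3 were higher and 4 lower, with a median log2 fold change of -0.40. Over all genes tested, 17.7% were higher and 12.1% lower, with a median of -0.0029. Rdh10 and Aldh1a3, enzymes that make retinoic acid, were higher, at 0.79 ± 0.14 (adjusted p = 0.0190) and 1.88 ± 0.39 (adjusted p = 0.0246). The receptor genes Rara and Rxrb were lower, at -0.54 ± 0.12 (adjusted p = 0.0286) and -0.78 ± 0.16 (adjusted p = 0.0239). Other transcription factors of regional identity were tested for 12 genes, of which 4 were lower and 0 higher, with a median of -0.78. These were Tbx1 at -1.96, Irx1 at -1.40, Lhx2 at -0.94 and Otx1 at -0.82. Of 7 tested DLX and MSX homeobox genes 4 were lower, namely Msx2, Dlx5, Dlx3 and Dlx2, and 0 were higher. The median over these 7 was -1.08, with log2 fold changes from -2.14 to 1.28. EVX and ParaHox genes, the closest relatives of the Hox clusters, were too low to test.

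**Figure D5:**
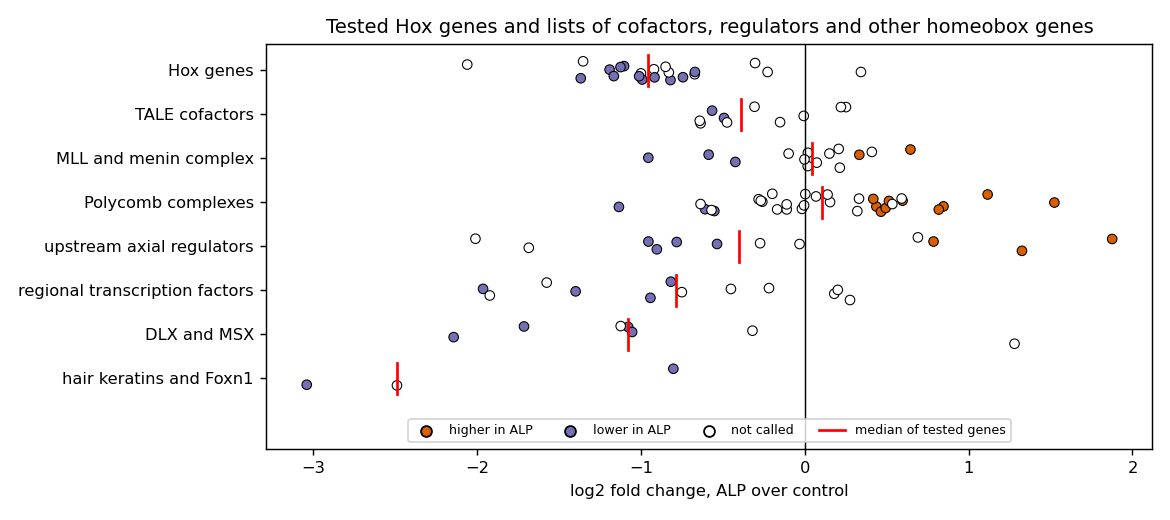
Log2 fold change, ALP over control, of each tested gene of the Hox set and of 7 lists of cofactors, regulators and other homeobox or hair genes, with the median of each list in red. Hox genes, with a median of -0.96, lie mostly left of 0. Genes of the MLL list, which also holds demethylases, and of the Polycomb list lie on both sides, with medians of 0.05 and 0.10.

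Known and likely targets of Hoxc13 in the hair follicle were mostly near 0 in these cells. Of 15 genes on the list of hair keratins and hair follicle factors 14 were found, 9 of these had under 3 counts in every library, and 3 were tested. Foxn1, a regulator of hair and thymic epithelium, was lower (-0.80 ± 0.17, adjusted p = 0.0247). The hair keratin Krt32 had 10 and 0 counts in ALP libraries and 40 and 49 counts in controls (adjusted p = 0.0483). Foxq1 had 83 and 5 counts in ALP libraries and 281 and 237 counts in controls and was not called (adjusted p = 0.0685). All 3 had fewer counts in both ALP libraries than in either control, and fewer in ALP library B than in ALP library A. These counts are not scaled for library size. In CPM, 37.5% of all genes tested had both ALP libraries below both controls, and 50.6% had ALP library B below A. A link of these 3 genes to Hoxc13 was not tested.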

How the data were processed

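RNA was sequenced in 2 ALP and 2 control libraries, and the authors deposited 1 table with raw counts, group means of a normalized signal, and a log2 fold change with p-value and adjusted p-value for each gene. Alignment with HISAT2 2.0.5 and counting with featureCounts 1.5.0-p3 are named in the submitters' processing notes, which also name GRCh38, although 99.77% of the gene identifiers are in the mouse annotation GENCODE M21. No source used here gives the library kit or its strandedness. A further 4 columns of values per library were not used here.

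From the counts, edgeR 4.0.16 (filterByExpr, count minimum 10, total minimum 15, TMM, quasi-likelihood F test, two-sided, group as the only term) was fitted to all genes, with Benjamini-Hochberg adjustment and a threshold of 0.05. The standard error of a log2 fold change was its size over the root of F. The biological coefficient of variation was 0.144, with 2 residual degrees of freedom. The pipeline was tested on simulated counts. Alternatives were RLE and upper-quartile scaling, no filter, a minimum count of 30, DESeq2 1.42.0, limma-voom (limma 3.58.1) and leaving out each library. Exon overlaps and 3′ untranslated regions came from GENCODE M21 (GRCm38), promoters and microRNAs from RefSeq (GRCm38.p6). Members and gene lists were chosen with earlier results of these data known. Values per library are given for Hox genes called or among the 10 highest per kb, and up to 4 tested genes with the smallest p are named from each list, as well as called rows and the 3 with most counts inside and beside the clusters. Some genes are counted in totals but not reported here by name.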

Additional observations from a re-analysis of the deposited data

How the results depend on the processing

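With each library left out in turn, the number of genes called ranged from 0 to 7308, against 4188 with all libraries, and the number of Hox genes called ranged from 0 to 19, against 11. The 0 for Hox genes came from leaving out control library A or control library B, which leaves 1 control library, assumed to vary like the ALP libraries, and the 19 from leaving out ALP library A. Under RLE or upper-quartile scaling 12 Hox genes were called, with no filter 13, with a minimum count of 30 12, in DESeq2 11 and in limma-voom 13, and no Hox gene was called higher under any alternative. Hoxa4 alone changed sign, to 0.020 without ALP replicate B (-2.11 without ALP replicate A), a fit in which its 1 ALP library lay between the controls. The lists of cofactors and regulators lost nearly all calls without either control library. The other settings left the direction of all tested Hox genes as it was. The planned ranking of members by another length measure was not run. No paired analysis was possible because the table's columns carry only 1 replicate number that both groups share. The column numbers skip values and differ from those of the sample titles, so columns were matched to groups only. Whether further libraries were left out is not known here. The depth limits what can be said of the 18 untested Hox rows, which had no more than 8 counts in any library. Among them Hoxc9 was above the detection floor in every library.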
